A study of Homo sapiens with 6 samples.

Results

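The NF-kappaB pathway, cytokine and chemokine genes described here are 38 named genes out of 57445 in the deposited count table, found by their symbols: 8 NF-kappaB subunits and IkappaB proteins, 9 feedback, adaptor and target genes, 11 chemokines and 10 cytokines. IL8 is the older symbol of CXCL8. They were measured by RNA sequencing of H358 cells, a widely used human lung cancer line of the non-small cell type, in 6 libraries. C1 and C2 are clones that the labels call isogenic, both given as homozygous for BRMS1v2 A273V, and WT is the parental line with wild-type BRMS1, each with 2 libraries. All cells grew in RPMI with serum, and no stimulus of the pathway is listed. Each clone is 1 line, so the variant and whatever else sets a single clone apart from WT cannot be told apart. The labels do not say that replicates are separate cultures, so p-values measure only the spread between these libraries, which may be technical.

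NF-kappaB is a family of dimeric transcription factors built from NFKB1, NFKB2, REL, RELB and RELA. In resting cells the dimers are held in the cytoplasm by IkappaB proteins, and signals from tumour necrosis factor, interleukin 1 or lymphotoxin receptors release them. Many of the genes they activate are their own inhibitors, such as NFKBIA and TNFAIP3, and many others encode chemokines and cytokines that draw in leukocytes. Airway epithelial cells and lung tumour cells are a known source of IL8 and related chemokines. BRMS1, the gene that carries the variant, is a metastasis suppressor of the SIN3-HDAC co-repressor complex, and it has been described as a repressor of RELA-dependent transcription.

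The libraries held between 27527867 and 37146270 counts in genes. Levels are CPM, read counts set relative to the TMM-scaled library size, and differences are log2 differences from edgeR over the 17129 genes that passed the filter on low counts. Libraries with the same replicate number deviated together from their group means in all 3 groups, and the values with that number as a block are called blocked. Rose and fell below refer to blocked calls at an adjusted p below 0.05. The main fit was the one without the block, and the block was the alternative. Without the block, edgeR called 0 of 33 genes in C1 (0.0117% of all genes were called, all of them lower), 0 in C2 (0.0117%, all lower) and 0 for the mean of the clones (0.198%, with 0.0234% higher and 0.175% lower). At an unadjusted p below 0.05 and without the block, 8 of 33 passed in C1 (7.87% of all genes), 7 in C2 (6.75%) and 10 for the mean of the clones (9.79%). Epithelial markers were present in all libraries, with EPCAM, KRT8, KRT18, KRT19 and CDH1 at 17281 counts or more each, SFTPB at 1 or 0 counts, and a summed level of 5480 to 6000 CPM in C1, 5270 to 5530 CPM in C2 and 4090 to 4810 CPM in WT over the 8 epithelial and lung markers. The 4 T and NK cell markers summed to at most 0.202 CPM in any library. In the myeloid list, the general leukocyte marker PTPRC had 3 to 13 counts and CD14 had 21 to 98. The 7 myeloid markers summed to 3.05 to 4.14 CPM in C1, 1.75 to 4.02 in C2 and 2.85 to 4.81 in WT. The 5 fibroblast markers, nearly all COL1A1 and LUM, summed to 39.2 to 70.1 CPM in C1, 44.6 to 70.6 in C2 and 49.4 to 59.3 in WT. The 3 endothelial markers, mostly KDR, summed to 18 to 42.2 CPM in C1, 16.2 to 26.1 in C2 and 9.53 to 21.2 in WT, and the 3 B cell markers to 1.05 to 3.11 CPM over all libraries.

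Of the 38 genes, 33 could be tested and 5 were too low to read: TNF, CCL2, CCL5, CXCL5 and CSF3. TNF, the founding ligand of the pathway, had 2 and 1 counts in C1 and 0 and 3 counts in C2, against 3 and 2 counts in WT. CCL2, a monocyte chemokine, had 1 count in each WT library and 0 in all 4 clone libraries, where a count of 0 allows up to 3 counts. CXCL5 had 0 to 4 counts per library, and CSF3, a granulocyte growth factor, 0 to 2. CCL5, a T cell chemokine, had 1 and 0 counts in C1 and 4 and 1 counts in C2, against 18 and 9 counts in WT. Its ratio to WT was 0.0346 in C1 (95% exact interval 0.000845 to 0.21) and 0.186 in C2 (0.0558 to 0.489), where the intervals cover counting error only. In a fit without the filter CCL5 was called lower in C1 and called for the mean of the clones. It also passed the filter in some fits with a library left out, and it counts among the genes called in some of those below. Of the 50-base windows of its transcripts, 15.2% also occur in other annotated transcripts.

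The promoters of 6 genes are shown as examples with and without a motif: BIRC3, LTB, TNFAIP3 and IL11, which fell, IL8, the chemokine with the highest level, and TRAF1, the gene that rose. They were picked after their values and motifs were known, and they do not stand for all the genes called. Each runs from 250 bases before to 50 bases after the first listed start, 5′ to 3′ on the strand of the gene, from RefSeq (GRCh38.p14), a different build from the hg19 of the counts. Capitals mark matches on either strand. The kappaB consensus, the binding motif of NF-kappaB, was searched as GGGRNNYYCC. The AP-1 motif that FOS and JUN dimers bind was searched as TGANTCA. R is A or G, Y is C or T, and N is any base. Sequences that depart from these patterns, even by a single base, are not marked.
BIRC3: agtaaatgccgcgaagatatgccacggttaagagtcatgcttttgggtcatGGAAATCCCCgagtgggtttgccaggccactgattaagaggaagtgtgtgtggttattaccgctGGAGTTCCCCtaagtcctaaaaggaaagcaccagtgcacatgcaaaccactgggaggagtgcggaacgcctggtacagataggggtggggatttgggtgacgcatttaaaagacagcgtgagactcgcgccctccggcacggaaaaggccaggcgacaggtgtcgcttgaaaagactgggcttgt
LTB: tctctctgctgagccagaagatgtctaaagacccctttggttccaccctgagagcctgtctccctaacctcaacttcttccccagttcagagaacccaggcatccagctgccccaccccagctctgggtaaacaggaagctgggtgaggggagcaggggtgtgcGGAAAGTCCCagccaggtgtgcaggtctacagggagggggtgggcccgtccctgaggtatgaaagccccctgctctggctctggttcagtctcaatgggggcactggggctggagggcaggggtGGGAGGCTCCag
TNFAIP3: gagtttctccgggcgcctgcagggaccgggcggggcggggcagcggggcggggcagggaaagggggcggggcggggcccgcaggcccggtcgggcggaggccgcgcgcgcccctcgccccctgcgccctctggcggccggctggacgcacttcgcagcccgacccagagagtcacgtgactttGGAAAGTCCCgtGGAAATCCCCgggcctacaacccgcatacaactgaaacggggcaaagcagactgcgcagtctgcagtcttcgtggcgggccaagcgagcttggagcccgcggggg
IL11: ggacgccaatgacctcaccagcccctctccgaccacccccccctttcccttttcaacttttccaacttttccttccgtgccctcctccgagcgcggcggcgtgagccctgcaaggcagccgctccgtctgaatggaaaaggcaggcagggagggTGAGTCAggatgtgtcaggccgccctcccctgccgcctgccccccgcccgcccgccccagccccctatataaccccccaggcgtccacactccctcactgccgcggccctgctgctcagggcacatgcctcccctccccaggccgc
IL8: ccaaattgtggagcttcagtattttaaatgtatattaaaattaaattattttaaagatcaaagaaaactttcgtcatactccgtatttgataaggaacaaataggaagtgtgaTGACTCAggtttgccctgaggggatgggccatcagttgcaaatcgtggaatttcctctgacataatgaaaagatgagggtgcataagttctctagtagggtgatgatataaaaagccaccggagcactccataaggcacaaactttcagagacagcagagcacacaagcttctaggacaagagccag
TRAF1: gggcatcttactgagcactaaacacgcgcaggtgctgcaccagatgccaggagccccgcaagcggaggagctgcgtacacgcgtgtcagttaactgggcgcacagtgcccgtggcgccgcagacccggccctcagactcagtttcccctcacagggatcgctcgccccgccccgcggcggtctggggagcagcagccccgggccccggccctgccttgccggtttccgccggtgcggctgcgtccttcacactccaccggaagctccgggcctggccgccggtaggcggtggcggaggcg

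The windows lie at chr11:102317234-102317533, plus strand, chr6:31582376-31582675, minus strand, chr6:137867009-137867308, plus strand, chr19:55370414-55370713, minus strand, chr4:73740319-73740618, plus strand and chr9:120929122-120929421, minus strand. BIRC3 holds 2 kappaB matches, which begin 135 and 199 bases before the start, and TNFAIP3 holds 2 that begin 55 and 67 bases before it. LTB holds a match that reads GGAAAGTCCC on the strand of the gene and fits the consensus on the opposite strand, beginning 86 bases before the start, and GGGAGGCTCC 38 bases past it. IL11 and IL8 each hold 1 AP-1 match, beginning 96 and 137 bases before the start. The IL8 window also holds tggaatttcc, left unmarked because it departs from the kappaB pattern in its first base. Of the other genes called lower, IL32 holds 2 overlapping kappaB matches and IL1A 2 AP-1 matches. NFKB2, NFKBIB and ICAM1 match neither pattern, and CXCL16 had no promoter entry and was not searched. The ICAM1 window does hold tggaaattcc, which departs from the kappaB pattern in its first base. The TRAF1 window matches neither pattern, and the 2 further TRAF1 starts in the table were not searched. CXCL1, CXCL2 and CXCL3, all on chromosome 4, share the match GGGAATTTCC at 79, 78 and 79 bases before their starts, where it overlaps a second match on the other strand. Among the 38 genes, 28 had a promoter in the table, of which 14 (50%) held a kappaB match and 3 (10.7%) an AP-1 match. Over all 27305 promoters of that length the shares were 10.8% and 7.76%. The 38 genes were named for their part in the pathway, many as its targets, so their kappaB share is not an independent result. A match describes letters in these windows and shows no binding, and the lack of a match does not show that binding is absent.

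The levels spanned a wide range, and the same few genes led in all 3 groups. Per kilobase of exon, TNFAIP2, a target gene induced by tumour necrosis factor, was highest at 139 ± 5.21 CPM in C1, 119 ± 1.16 in C2 and 134 ± 5.67 in WT (SD, n = 2 each). NFKBIA followed with 51.5 ± 23.9 CPM per kilobase in C1, 53.04 ± 20.6 in C2 and 56.7 ± 20.1 in WT. LIF, a cytokine of the same family as IL6, ranked 3 in both clones, at 41.6 ± 18.1 in C1 and 51.1 ± 2.46 in C2, and 4 in WT at 35.9 ± 0.348 CPM per kilobase. IL8 ranked 4 in both clones, at 24.9 ± 17.1 in C1 and 24.4 ± 11.5 in C2, and 3 in WT at 44.6 ± 6.91 CPM per kilobase. The gaps between NFKBIA and LIF in either clone, and between NFKBIA and IL8 in WT, were within the spread of NFKBIA. TNIP1, which binds TNFAIP3 protein, ranked 5 in all 3 groups. The plot of levels shows that NFKB1 lay far above REL in each group, at 11.5 ± 2.91 against 0.534 ± 0.0268 CPM per kilobase in C1, for example. CCL5 has no length in the annotation used and is left out of this order.

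**Figure D1:**
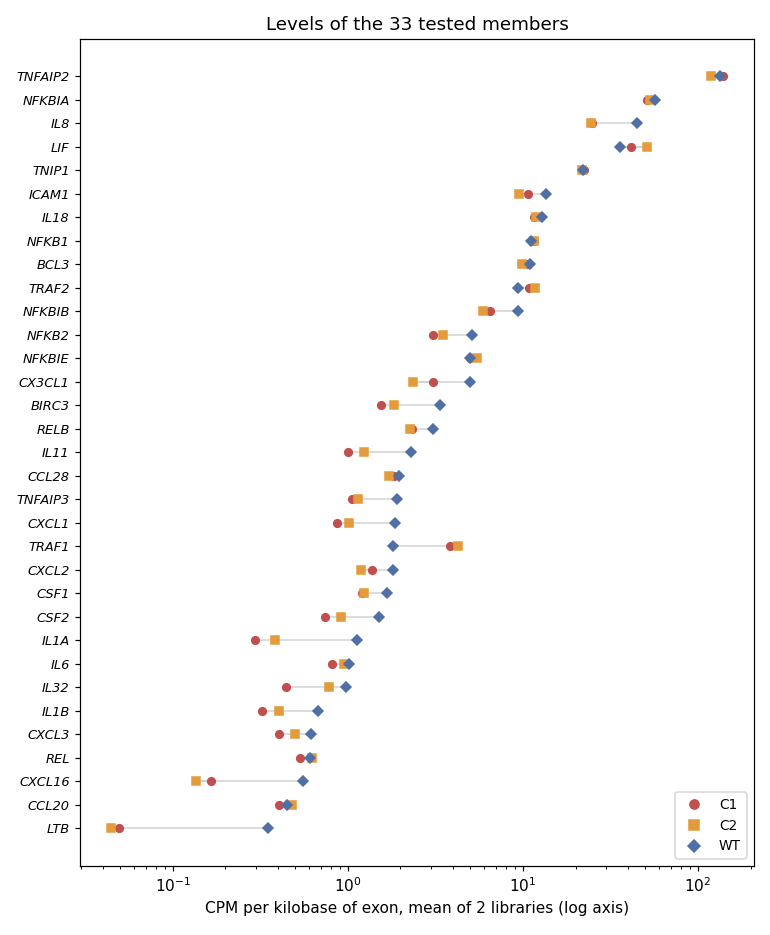
Mean level of each of the 33 tested genes in CPM per kilobase of exon (log axis), 2 libraries per group, ordered by the WT level. TNFAIP2 is highest and LTB lowest in every group, and TRAF1 is the gene whose clone markers lie farthest to the right of WT.

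Most of the tested genes lay below WT in both clones. Without the block, 27 of 33 had a negative log2 difference in C1, with a median of -0.41, against 50.6% and a median of -0.01 over all genes tested. In C2, 26 of 33 were negative with a median of -0.43, against 49.5% and 0.01. The related lists described further below lay nearer to all genes. Of 26 further NF-kappaB targets, 57.7% in C1 and 53.8% in C2 were negative, with medians of -0.09 and -0.11. Of 23 other cytokines and chemokines, 56.5% and 47.8% were, with medians of -0.17 and 0.08. The C1 median was -0.61 without C1 replicate 1, and the C2 median was -0.25 without WT replicate 2. With the block, 8 of 33 were called in C1, where 7.03% of all genes were: 7 were lower (4.07% of all genes) and 1 higher (2.96%). In C2, 4 were called (4.54% of all genes), 3 lower (2.59%) and 1 higher (1.94%). The mean of the clones gave 11 (9.74%), 10 lower (5.63%) and 1 higher (4.12%). Both libraries of both clones lay below both WT libraries in 13 of 33 genes, where the same held for 11.9% of all genes. They lay above in 1 gene, TRAF1, against 11.9% of all genes. Both clones are set against the same WT libraries, so their counts are not independent of each other. In these bulk libraries fewer cells that express a gene and less RNA per cell cannot be told apart. Of 20 proliferation genes, with the block, 18 were below WT in C1 (median -0.87) and 12 in C2 (median -0.08), and 1, TYMS, was called lower in C1. Without the block 18 and 6 were below WT, with medians of -0.36 and 0.06 and 0 called. Their part in the values here was not tested.

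**Figure D2:**
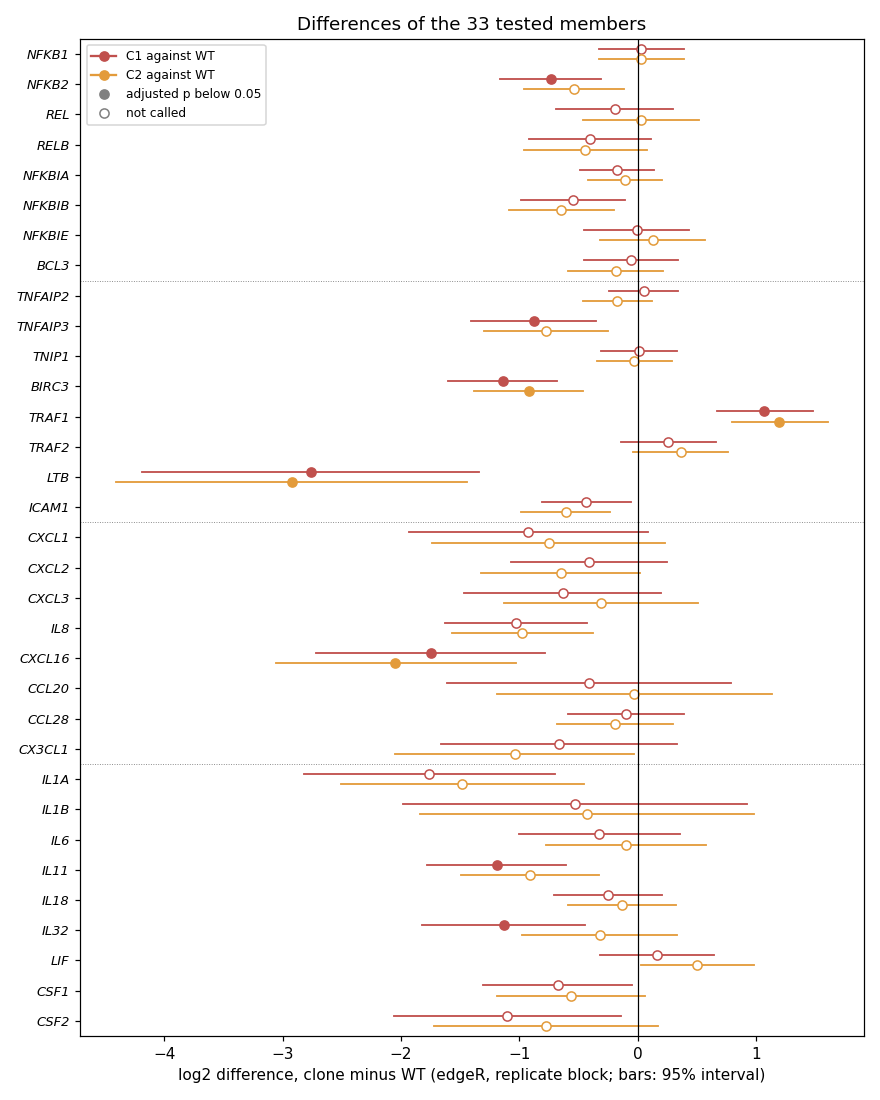
Blocked log2 difference of each of the 33 tested genes in C1 and in C2 against WT, with 95% intervals, in 4 blocks by role: subunits and IkappaB proteins, feedback and target genes, chemokines, cytokines. Filled points passed the adjusted threshold, 8 in C1 and 4 in C2, and TRAF1 alone of these lies to the right of 0.

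Among the subunits, NFKB2 was the one called. NFKB2, the precursor of the subunit that works in the non-canonical arm, had 15.3 and 12.3 CPM in C1 and 15.5 and 15.97 CPM in C2, against 24.3 and 21.6 CPM in WT. All 4 clone libraries lay below both WT libraries. The log2 difference was -0.73 (SE 0.20, adjusted p 0.041) in C1, where it fell, and -0.54 (SE 0.20, adjusted p 0.15) in C2. RELB, the usual partner of NFKB2, had 6.61 and 7.51 CPM in C1 and 6.95 and 6.81 CPM in C2, against 10.5 and 8.21 CPM in WT. The groups did not overlap either, but the differences of -0.40 and -0.44 did not pass (adjusted p 0.37 and 0.36). NFKB1, precursor of the classical subunit, had 85.03 and 59.3 CPM in C1 and 86.8 and 58.1 CPM in C2, against 71.2 and 67.3 CPM in WT, with clone libraries on both sides of WT. The 95% interval of its blocked difference was -0.33 to 0.39 for C1, and for C2 it was -0.33 to 0.39. REL had 6.78 and 7.28 CPM in C1 and 7.79 and 8.63 CPM in C2, against 7.67 and 8.41 CPM in WT, and 43.2% of the 50-base windows of its transcripts also occur in other annotated transcripts, so its counts are less certain. RELA, which is not among the 38 genes, had 115 and 167 CPM in C1 and 112 and 151 CPM in C2, against 112 and 127 CPM in WT, and was not called in either clone (blocked log2 difference 0.22 in C1 and 0.13 in C2).

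Of the inhibitors, NFKBIB was the one called. NFKBIB, which holds NF-kappaB in the cytoplasm, had 11.8 and 18.3 CPM in C1 and 13.1 and 14.5 CPM in C2, against 19.4 and 23.96 CPM in WT. Every clone library lay below the lower WT library, and the blocked difference of the mean of the clones was -0.60 (SE 0.17, adjusted p 0.045), while C1 alone (-0.55, adjusted p 0.13) and C2 alone (-0.65, adjusted p 0.098) did not pass. NFKBIA, an inhibitor that NF-kappaB itself induces, had 81.9 and 162 CPM in C1 and 91.3 and 160.4 CPM in C2, against 101 and 168 CPM in WT. Its libraries parted by replicate number and overlapped between groups, with a 95% interval of -0.49 to 0.14 for C1 and of -0.42 to 0.20 for C2. NFKBIE and BCL3, a further inhibitor and a nuclear member of the same family, had blocked differences between -0.18 and 0.13 over both clones.

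Of the 8 feedback, adaptor and target genes tested, 4 were called in C1 (7.03% of all genes) and 3 in C2 (4.54%). TNFAIP3, the ubiquitin-editing enzyme A20 that ends NF-kappaB signals, had 6.33 and 4.31 CPM in C1 and 7.51 and 4.12 CPM in C2, against 10.97 and 8.38 CPM in WT. No clone library reached the lower WT library. It fell in C1, with a log2 difference of -0.88 (SE 0.24, adjusted p 0.047), and in C2 the difference was -0.78 (SE 0.24, adjusted p 0.094). BIRC3, a ubiquitin ligase at tumour necrosis factor receptors, had 13.7 and 9.59 CPM in C1 and 17.3 and 10.3 CPM in C2, against 26.4 and 24.2 CPM in WT. It fell in both clones, with -1.14 (SE 0.21, adjusted p 0.0061) in C1 and -0.92 (SE 0.21, adjusted p 0.028) in C2, and the groups did not overlap. BIRC3 and IL18 lie on chromosome 11 beyond BRMS1, where 302 tested genes with a mean log2 CPM above 2 were below WT by a median log2 of -0.37 for C1 (quartiles -0.54 to -0.20) and -0.36 for C2 (quartiles -0.51 to -0.20). The part of this in the BIRC3 values was not tested. LTB, the lymphotoxin subunit that signals to the non-canonical arm, had 3 and 2 counts in C1 and 3 and 1 counts in C2, against 23 and 10 counts in WT. It fell in both clones, with -2.76 (SE 0.66, adjusted p 0.024) in C1 and -2.92 (SE 0.69, adjusted p 0.03) in C2, on 5 and 4 counts in all against 33.

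TRAF1 was the gene that rose. TRAF1, an adaptor of tumour necrosis factor receptors and itself a known NF-kappaB target, had 28.5 and 21.1 CPM in C1 and 32.9 and 21.8 CPM in C2, against 12.9 and 10.5 CPM in WT. The lowest clone library lay above the highest WT library. It rose by 1.07 (SE 0.19, adjusted p 0.0041) in C1 and 1.2 (SE 0.19, adjusted p 0.0027) in C2. TRAF2, the adaptor that TRAF1 binds, had 43.3 and 36.04 CPM in C1 and 48.9 and 37.2 CPM in C2, against 45.2 and 23.8 CPM in WT, with overlapping groups and blocked differences of 0.26 (C1) and 0.37 (C2) that did not pass. TNFAIP2 and TNIP1 differed little, with differences between -0.17 and 0.05. ICAM1, the adhesion molecule that leukocyte integrins bind, had 22.98 and 55.95 CPM in C1 and 20.1 and 50.1 CPM in C2, against 36.2 and 64.2 CPM in WT. Replicate 2 was higher in every group and the groups overlapped. ICAM1 fell for the mean of the clones, -0.52 (SE 0.15, adjusted p 0.043), and 21.2% of the windows of its transcripts occur in other annotated transcripts.

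**Figure D3:**
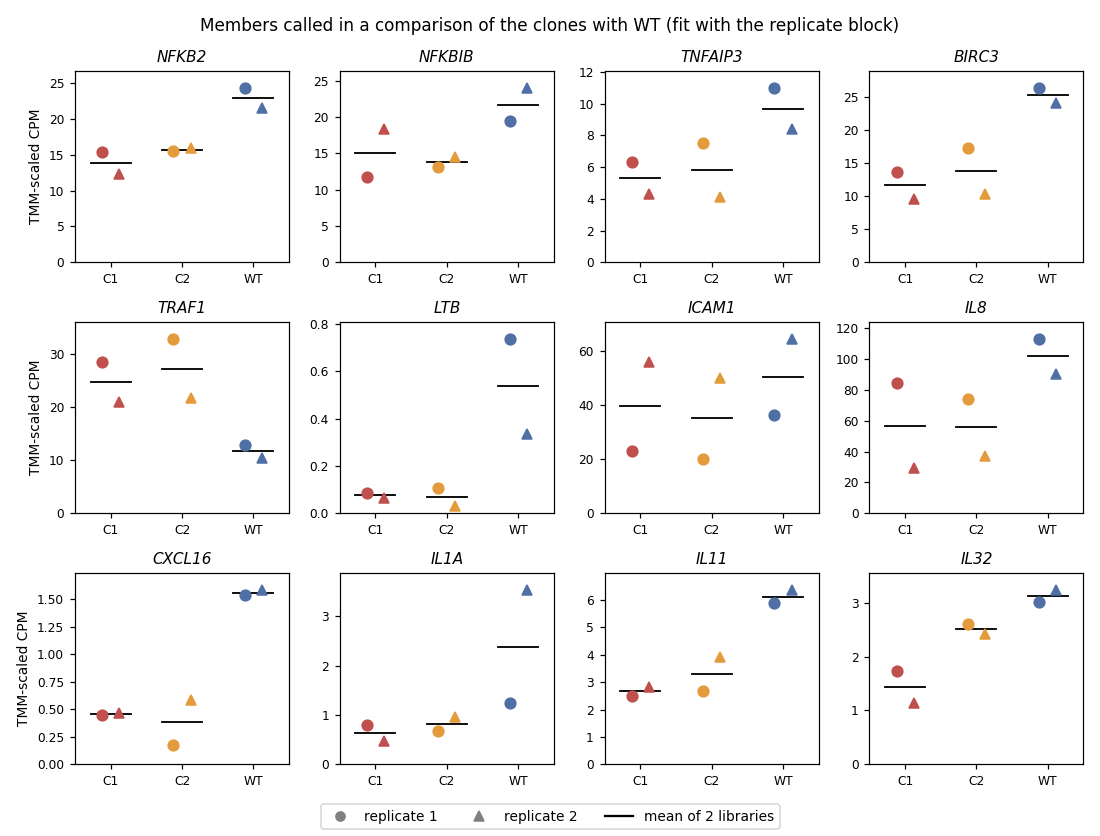
TMM-scaled CPM in each library for the 12 genes called in C1, in C2 or for the mean of the clones in the blocked fit, with circles for replicate 1, triangles for replicate 2 and a line at the mean of 2 libraries. In 11 of the 12 panels no clone library overlaps WT, and ICAM1 is the exception, with its libraries parted by replicate number.

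All 8 tested chemokines had negative blocked differences in both clones, where 51.2% of all genes did in C1 and 50.1% in C2. Without the block 8 were negative in C1 and 7 in C2. The blocked difference of CCL20 in C2 was only -0.03. CXCL16 passed the test in each clone. CXCL16, a membrane-bound chemokine for CXCR6-bearing T cells, had 0.452 and 0.468 CPM in C1 and 0.175 and 0.588 CPM in C2, against 1.53 and 1.58 CPM in WT. Every clone library lay well below both WT libraries. CXCL16 fell in both clones, with -1.75 (SE 0.45, adjusted p 0.033) in C1 and -2.05 (SE 0.47, adjusted p 0.026) in C2. IL8, the main neutrophil chemokine, had 84.05 and 29.03 CPM in C1 and 74.05 and 37.2 CPM in C2, against 113 and 90.4 CPM in WT. Clone libraries were lower than both WT libraries, and replicate 2 was lower than replicate 1 in each group. Its difference was -1.03 (SE 0.26, adjusted p 0.057) in C1, -0.98 (SE 0.26, adjusted p 0.082) in C2, and -1.0 (SE 0.22, adjusted p 0.027) for the mean of the clones, where it fell.

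The other neutrophil chemokines of the cluster were much lower than IL8. CXCL1 had 1.05 and 1.202 CPM in C1 and 1.61 and 1.02 CPM in C2, against 3.81 and 1.01 CPM in WT, and the second WT library lay below all 4 clone libraries. CXCL3 had 1.19 and 0.601 CPM in C1 and 1.23 and 0.9902 CPM in C2, against 1.31 and 1.41 CPM in WT, with every clone library below WT. CXCL2 had 2.43 and 1.67 CPM in C1 and 2.35 and 1.21 CPM in C2, against 3.13 and 2.29 CPM in WT, with 1 C1 and 1 C2 library above the lower WT library. Their blocked differences ran from -0.92 (CXCL1 in C1) to -0.31 (CXCL3 in C2), and none passed. The 3 genes share sequence: 12.5% of the 50-base windows of CXCL2 transcripts, 6.01% of CXCL3 and 4.81% of CXCL1 occur elsewhere, mostly in each other, so reads may be dropped or misplaced. CX3CL1, a tethered chemokine for monocytes and NK cells, had 17.01 and 19.6 CPM in C1 and 12.2 and 15.8 CPM in C2, against 41.99 and 17.9 CPM in WT. In WT the libraries differed from each other more than the clones did from the second of them, and the differences of -0.66 and -1.04 did not pass in edgeR (adjusted p 0.43 and 0.25). CCL20, which draws CCR6-bearing cells, and CCL28, a mucosal chemokine, were not called. CCL20 overlapped WT in both clones, with blocked intervals of -1.61 to 0.79 in C1 and -1.19 to 1.14 in C2. CCL28 had 9.16 and 7.42 CPM in C1 and 8.11 and 7.396 CPM in C2, against 9.05 and 8.58 CPM in WT, so C1 overlapped WT while both C2 libraries lay below it, with blocked intervals of -0.58 to 0.39 for C1 and -0.68 to 0.30 for C2.

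Among the cytokines, IL11 and IL32 fell in C1. IL11, a cytokine of the interleukin 6 family, had 2.52 and 2.84 CPM in C1 and 2.67 and 3.93 CPM in C2, against 5.88 and 6.36 CPM in WT. Every clone library was below both WT libraries, and the difference was -1.19 (SE 0.27, adjusted p 0.019) in C1 and -0.91 (SE 0.27, adjusted p 0.077) in C2. IL32, a secreted inducer of other cytokines, had 1.72 and 1.14 CPM in C1 and 2.597 and 2.41 CPM in C2, against 3.01 and 3.23 CPM in WT. It fell in C1, -1.13 (SE 0.32, adjusted p 0.049), while C2 had -0.32 (SE 0.30, adjusted p 0.63). C2 against C1 gave 0.81 for IL32 (interval 0.12 to 1.5, unadjusted p 0.0245, adjusted p 1), and the clones were not shown to differ. IL1A, an alarm cytokine held in epithelial cells, had 0.791 and 0.468 CPM in C1 and 0.667 and 0.959 CPM in C2, against 1.25 and 3.53 CPM in WT. All 4 clone libraries lay below both WT libraries. IL1A fell for the mean of the clones, -1.62 (SE 0.39, adjusted p 0.026), and missed the threshold in C1 (-1.76, adjusted p 0.053) and in C2 (-1.48, adjusted p 0.11).

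The remaining cytokines were not called against WT. IL1B, the secreted inflammatory counterpart of IL1A, had 0.678 and 1.34 CPM in C1 and 0.526 and 1.98 CPM in C2, against 0.224 and 3.97 CPM in WT, so the WT values enclosed every clone value. IL6 stood between 1.64 and 2.21 CPM in all 6 libraries, and 15.3% of its windows occur in other annotated transcripts. CSF2, a growth factor of granulocytes and macrophages, had 0.904 and 0.267 CPM in C1 and 0.948 and 0.495 CPM in C2, against 1.25 and 1.11 CPM in WT, with no overlap, and differences of -1.1 for C1 (adjusted p 0.17) and -0.77 for C2 (adjusted p 0.38). CSF1, the macrophage growth factor, had 3.11 and 9.92 CPM in C1 and 4.001 and 9.47 CPM in C2, against 7.61 and 10.6 CPM in WT, and IL18 had 43.2 and 17.6 CPM in C1 and 37.2 and 25.2 CPM in C2, against 38.8 and 28.7 CPM in WT. Both overlapped between groups and parted by replicate number. LIF was the cytokine with positive values in both clones, at 216 and 114 CPM in C1 and 209.9 and 196 CPM in C2, against 141 and 143 CPM in WT, and blocked differences of 0.16 and 0.51 (intervals -0.32 to 0.64 and 0.03 to 0.98) that did not pass after adjustment. Over the 21 tested genes not called in any comparison with WT, blocked differences ran from -1.1 (CSF2) to 0.26 (TRAF2) in C1 and from -1.04 (CX3CL1) to 0.51 (LIF) in C2.

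Set against each other, the clones gave no call. Of the 33 genes 0 were called by edgeR between C2 and C1, with the block or without it, and 0% of all genes were. At an unadjusted p below 0.05, 1 of 33, IL32, passed with the block, where 3.75% of all genes did, so this count is at the background. Without the block 0 of 33 passed, against 0.356% of all genes. The blocked differences ran from -0.38 to 0.81, with a median of 0.11 (0.01 over all genes tested). In 5 genes (NFKB2, REL, NFKBIE, IL6, IL32) both C2 libraries lay above both C1 libraries and in 2 (TNFAIP2, CX3CL1) below, where 7.21% and 7.41% of all genes did so.

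The blocked calls depend on the libraries, which leave 2 residual degrees of freedom. Calls over all genes, given in the last section, were also far fewer in both fits without a C2 library. The drop in those fits is therefore not particular to this set. Without C2 replicate 1 or without C2 replicate 2, 0 of the 34 genes then tested were called in C1 or in C2. Without one of the other 4 libraries, 7 to 11 were called in C1 and 6 to 13 in C2. TRAF1 was called in both clones in each of these 4, BIRC3 in C1 in all 4 and in C2 in 3, and CXCL16 in C2 in all 4 and in C1 in 2. LTB was called in 2 of 4 in C1 and 3 of 4 in C2. NFKB2 and TNFAIP3 were called in C1 in 1 of 4 each, IL11 in 3 and IL32 in 2. Of the genes called only for the mean of the clones, that call held in 1 of 6 leave-outs for NFKBIB, 2 of 6 for ICAM1 (-0.75 to -0.28), 3 of 6 for IL8 (-1.45 to -0.50) and 3 of 6 for IL1A (-2.32 to -0.74). Over all 6 leave-outs the blocked difference of TRAF1 kept between 0.98 and 1.18 in C1 and between 1.1 and 1.31 in C2, and that of BIRC3 between -1.39 and -0.88 and between -1.17 and -0.66. CXCL16 in C2 ranged from -3.12 to -1.41, IL8 in C1 from -1.49 to -0.54 and IL1A in C1 from -2.73 to -0.88. DESeq2 with the block called 6 of the genes in C1, BIRC3, IL11, IL8, NFKB2, TNFAIP3 and TRAF1, and 4 in C2, BIRC3, CX3CL1, IL8 and TRAF1. It called neither LTB nor CXCL16 in either clone. Its counts over all genes, given in the last section, were close to those of edgeR with the block.

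Several of these genes differed between the replicate numbers. Their counts were near the shares over all genes, so the counts are no result about the set. Between replicate 2 and replicate 1, 11 of 33 were called (24.7% of all genes), 5 of which rose (12.5%) and 6 fell (12.2%). ICAM1 rose, with within-group log2 differences of 1.28 in C1, 1.32 in C2 and 0.82 in WT and a fitted difference of 1.14 (SE 0.14, adjusted p 0.00014). NFKBIA rose with 0.85 (SE 0.12, adjusted p 0.00029), CSF1 with 1.12 (SE 0.24, adjusted p 0.0053) and BCL3 with 0.47 (SE 0.15, adjusted p 0.039). IL1B had the widest range, with 0.92 in C1, 1.79 in C2 and 3.81 in WT and a fitted 2.22 (SE 0.53, adjusted p 0.019). CCL20 fell most, with -2.93 in C1, -1.49 in C2 and -0.67 in WT and -1.73 (SE 0.46, adjusted p 0.017). IL8 (-0.94), IL18 (-0.76), TNFAIP3 (-0.60), TRAF2 (-0.53) and TRAF1 (-0.45) fell, with adjusted p between 0.0078 and 0.045. In 10 genes replicate 2 was higher in all 3 groups and in 12 lower, against 28.1% and 28.3% of all genes. All 20 proliferation genes examined were lower in replicate 2, with a median log2 difference of -2.08 and 6 called. This list was drawn up with its movement with the replicate number already known from these data, so that is no independent result. Their part in the values above was not tested. Without C2 replicate 1 or C2 replicate 2 the calls shrank to 2, ICAM1 and NFKBIA.

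**Figure D4:**
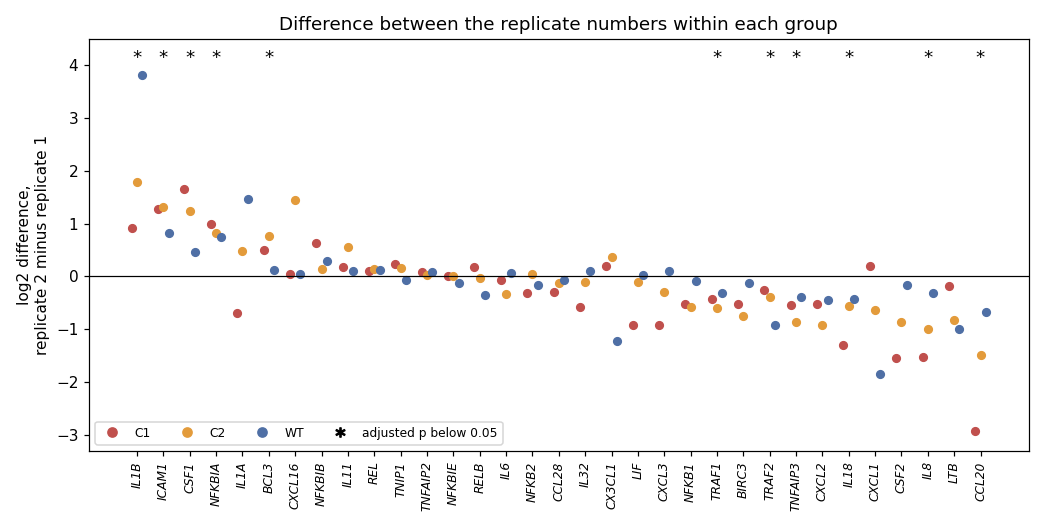
Log2 difference of replicate 2 minus replicate 1 within C1, C2 and WT for the 33 tested genes, ordered by the fitted difference, with stars on the 11 genes called. IL1B and ICAM1 stand at the high end and CCL20 at the low end, and the WT points of CX3CL1 and CXCL1 lie far below those of both clones.

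Other genes of the pathway were called in both directions. Among 31 upstream components, from receptor adaptors to IkappaB kinases, C1 had 3 higher and 0 lower and C2 had 2 higher and 1 lower, with unblocked medians of 0.01 and 0.02. Over all genes tested, blocked, 2.96% were higher and 4.07% lower in C1, and 1.94% and 2.59% in C2, the shares against which the counts of this list and of the next 3 are to be read. TRAF5, a receptor adaptor, had 35.8 and 29.8 CPM in C1 and 40.04 and 41.7 CPM in C2, against 23.02 and 16.7 CPM in WT, and rose in both clones (0.73 and 1.06), as did RIPK1, the kinase at the tumour necrosis factor receptor (0.57 and 0.69). IRAK4 rose in C1 (0.74), and RBCK1, part of the linear ubiquitin ligase, fell in C2 (-0.88). Among 26 further tested NF-kappaB target genes, C1 had 3 higher and 2 lower, and C2 had 1 higher and 2 lower. LCN2, a siderophore-binding protein (2.76), PLAU, urokinase (0.97), and SDC4, syndecan 4 (0.62), rose in C1, and PLAU rose in C2 (0.78). CYP27B1, which activates vitamin D (-1.76 and -1.48), and complement C3 (-1.41 and -1.17) fell in both.

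Of 23 other tested cytokines and chemokines, 3 were higher and 0 lower in C1 (2.96% and 4.07% of all genes), and 2 were higher and 0 lower in C2 (1.94% and 2.59%). At those shares a count of 0 lower among 23 is no result about the list. CXCL17, a mucosal chemokine, had 1.498 and 4.28 CPM in C1 and 1.05 and 5.85 CPM in C2, against 0.384 and 1.18 CPM in WT. It rose in both clones (1.93 and 1.99), and replicate 2 was the higher library in each group. TNFSF13B (1.44) and TNFSF15 (0.67), members of the tumour necrosis factor ligand family, rose in C1, and the eosinophil chemokine CCL26 rose in C2 (1.27). Among 18 tested receptors and decoys of the cytokines above, C1 had 2 higher, and C2 had 2 higher and 1 lower. IL18R1, a chain of the interleukin 18 receptor, had 1.72 and 1.904 CPM in C1 and 1.86 and 2.07 CPM in C2, against 0.3198 and 0.404 CPM in WT, and rose in both (2.32 and 2.43). LIFR, the receptor of LIF, had 95.3 and 82.2 CPM in C1 and 106 and 88.1 CPM in C2, against 55.2 and 48.4 CPM in WT, and rose in both (0.78 and 0.90). IL1RAP, the shared chain of interleukin 1 receptors, fell in C2 (-0.82). The genes of these 4 lists said to have risen or fallen had blocked adjusted p between 0.0011 and 0.047, and between 0.18 and 0.91 without the block.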

How the data were processed

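The authors deposited a table of raw counts, with genes in rows and a column for each library, and 5 rows of HTSeq totals, which were left out. Per the submitters' processing notes, the tools were cutadapt 1.6, STAR 2.5.0a and HTSeq 0.5.3 on hg19. The strand setting and annotation release are not given in the sources used here, so a gene and an antisense partner may share reads. Genes took 77.6% to 78.7% of the reads listed, with 6.77% to 7.56% aligned to more than 1 place. Intervals on counts cover counting error only.

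The main tool was edgeR 4.0.16 (R 4.3.3): filterByExpr over the 3 groups, TMM scaling, the robust quasi-likelihood F test over all 6 libraries and Benjamini-Hochberg adjustment over all 17129 genes, with calls at 0.05. Each clone and the mean of both were set against WT, C2 against C1, and replicate 2 against replicate 1. The replicate number as a block was the alternative. Deviations of same-numbered libraries from their group means correlated across genes by 0.584 (C1 and WT), 0.634 (C2 and WT) and 0.701 (C2 and C1), and on that ground same-numbered libraries were treated as pairs. This pairing comes from the data and not from the labels, and with 2 libraries per group 1 dominant source of variation could give the same values. Replicates of a group differed by a chi-square of 62.5 to 82 per gene, so none was a copy. Other alternatives were other size factors, DESeq2 1.42.0, no filter, only the libraries compared, and leaving out each library. The scripts were tested on simulated data.

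The 38 genes and the lists were chosen with earlier results of these data known. Genes given in every library were those called, those whose libraries did not overlap WT in both clones, those that differed by a log2 of 1 or more in either clone, and those called between replicate numbers; other lists name up to 6 called genes each. Members of other lists with no row or no call are counted only. Exon lengths and shared 50-base windows came from GENCODE 29 and promoters from RefSeq, both on a newer build than hg19.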

Additional observations from a re-analysis of the deposited data

How the results depend on the processing

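The count of genes called against WT depended on the model. Without the block edgeR called 0 of 33 in C1, in C2, in C2 against C1 and for the mean of the clones, with 8, 7, 0 and 10 at an unadjusted p below 0.05. The replicate block called 8, 4, 0 and 11, and over all genes 1204, 777 and 1669 against 2, 2 and 34 without it. DESeq2 without the block called 0, 1 and 2 of the genes in C1, in C2 and for the mean (270, 209 and 393 of all genes). With the replicate block DESeq2 called 6, 4 and 11 (1158, 839 and 1520 of all genes, and 20 in C2 against C1). No filter on low counts gave 1, 1 and 6 (296, 209 and 436 of all genes). With only the libraries compared, 1 gene of all was called in C1 and 0 in C2. Leaving out 1 library without the block called 0 of the genes in every comparison with WT, and over all genes 0 to 1 in C1, 0 in C2 and 0 to 3 for the mean. With the replicate block and 1 library left out, 0 to 11 were called in C1, 0 to 13 in C2, 0 to 15 for the mean and 0 to 1 in C2 against C1, where the 1 was LIF. In the order C1, C2 and mean, the genes called were 7, 13 and 13 without C1 replicate 1, 7, 12 and 15 without C1 replicate 2, 0, 0 and 0 without C2 replicate 1, 0, 0 and 1 without C2 replicate 2, 9, 6 and 10 without WT replicate 1, and 11, 8 and 10 without WT replicate 2. Over all genes, in the order C1, C2, mean and C2 against C1, these were 1456, 1756, 2261 and 343 without C1 replicate 1, and 1155, 1700, 2277 and 62 without C1 replicate 2. They were 178, 2, 208 and 0 without C2 replicate 1, and 199, 8, 213 and 0 without C2 replicate 2. They were 1776, 1293, 1932 and 102 without WT replicate 1, and 1495, 1255, 1653 and 90 without WT replicate 2. Between replicate numbers the leave-outs ran from 2 to 14 of the genes and 617 to 4849 of all genes.

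Of the 12 genes called, only ICAM1 changed sign in edgeR or DESeq2 under these alternatives, all without the block: 0.17 in C1 without C1 replicate 1, 0.13 in C1 and 0.04 for the mean without WT replicate 2, and 0.00488 in C2 without C2 replicate 1. Over these leave-outs ICAM1 ran from -1.12 to 0.17 in C1, -1.35 to 0.00488 in C2 and -0.843 to 0.0422 for the mean. Other size factors left the medians at -0.41 in C1 and -0.43 in C2, while leaving out 1 library without the block moved them between -0.61 and -0.35 in C1 and between -0.44 and -0.25 in C2. The cause of these shifts was not tested. Each fit without a library also has fewer residual degrees of freedom. Depth limits LTB, CXCL16, CCL20, CSF2 and CCL5, which rest on few counts per library. It also limits IL1A (14 to 105 counts per library), IL1B (7 to 118), CXCL3 (18 to 42) and CXCL1 (30 to 119).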
